A study of Homo sapiens with 6 samples.

Results

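The 44 genes described here encode the factors that build ribosomes in the nucleolus. They were chosen by name, and a transcript was taken as theirs when the authors' table gives it a member's symbol. The 44 symbols correspond to 46 gene IDs among the 63677 gene IDs of the table, since BOP1 and DKC1 have a pair of IDs each. For BOP1 the ID with the higher mean level was used. The paired IDs of DKC1 have the same values in every library, so its level is uncertain, and the first ID was used. All 44 members were above the filter of a mean of 1 TPM, and they are 44 of the 22651 genes tested. Total RNA of KMS27, an established human myeloma line, was compared between 3 libraries with overexpression of HA-TAZ and 3 libraries labelled wild type. TAZ is the product of WWTR1 and a coactivator of transcription that acts through TEAD factors, and HA is a peptide tag. The labels give no dose, time, promoter or vector for HA-TAZ, no genotype beyond the line, and nothing on separate cultures, so p-values measure the spread between these libraries, which may be technical.

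Ribosomes are assembled in the nucleolus around the ribosomal RNA that RNA polymerase I transcribes. The small subunit processome folds and cuts the precursor on its small subunit side, a chain of GTPases, helicases and scaffold proteins matures the large subunit, and small nucleolar ribonucleoproteins (snoRNPs) modify bases and riboses of the RNA. Many of these genes are textbook targets of MYC, and plasma cells, which secrete antibody, have a high demand for ribosomes.

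WWTR1, the overexpressed gene, was at 293, 306 and 293 TPM in HA-TAZ 1, 2 and 3 and at 2.69, 2.22 and 1.69 TPM in control a, b and c. The columns of the control libraries carry a name that is in no label, and they were taken as wild type because no other sample or column was left. TPM states the share of a library that a transcript holds per unit of length, and the deposited values carry no read depth for a single library. The authors' table implies 52795484 estimated counts in a typical library, and those of a member run from 1294 to 49132 with a median of 5210, which corresponds to a counting error of 1.39% for the median member. The plasma cell markers SDC1 (79.8 to 95.0 TPM) and JCHAIN (2234 to 4082 TPM) were high in all 6 libraries, whereas CD79A was at 0.072 to 0.124 TPM. Of 12 markers of other cell types, 10 were under the filter, and COL1A1 and PECAM1 were tested and not called.

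Promoter sequence was available from RefSeq (GRCh38.p14) for 37 of the 44 members, as the 250 bases before to the 50 bases after each start. NOLC1, TCOF1, DDX18, RRP12, BOP1, NOP58 and RRP1B were not in that table. The E-box CACGTG, which reads the same on both strands and is the site that MYC binds with its partner MAX, lay in 15 of the 37 windows (40.5%). It lay in a window of 8.77% of all 27305 genes of the table and of 12.6% of the 8890 tested protein-coding genes. The TEAD core GGAATG, searched with its complement CATTCC, lay in 5 of the 37 member windows (13.5%; BYSL, HEATR1, NPM1, PPAN and WDR75), against 16.7% over all genes and 14.6% over the tested protein-coding genes. A match describes the letters of the window and says nothing of binding. The E-boxes shown here, in capitals, are those of the 3 members with one that passed the test described in the text that follows (PES1, FBL and RRP9), of BYSL, the member with the largest fold change among those that did not pass, and of WDR43, the member with the lowest fold change.
PES1, chr22:30591880-30591909, minus strand, motif from base +14 of the transcript: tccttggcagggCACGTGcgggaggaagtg
FBL, chr19:39846356-39846385, minus strand, motif from base +7: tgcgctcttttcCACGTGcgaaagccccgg
RRP9, chr3:51941892-51941921, minus strand, motif from base -5: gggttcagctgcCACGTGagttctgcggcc
BYSL, chr6:41921515-41921544, plus strand, motif from base +29: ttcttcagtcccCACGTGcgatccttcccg
WDR43, chr2:28894658-28894687, plus strand, motif from base +4: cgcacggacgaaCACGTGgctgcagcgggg
Of the 5 sites, 4 begin within the first 30 bases of the transcript and that of RRP9 begins just before it. The flanks differ between the genes, and the same motif stands at the start of the gene with the lowest fold change. GNL2, GNL3, DDX21, EBNA1BP2, MRTO4, MYBBP1A, NOP14, NOP2, RCL1 and UTP20 hold the other E-boxes, and EBNA1BP2 holds a pair.

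Values of the 2 groups were compared as scaled TPM, which is TPM divided by a factor per library (0.866, 0.967 and 0.890 for HA-TAZ 1, 2 and 3, and 1.21, 1.09 and 1.06 for control a, b and c) that brings the median gene of the libraries together. A gene was called when limma on log2(scaled TPM + 1) gave a Benjamini-Hochberg adjusted p under 0.05 over all genes tested, and fold changes are HA-TAZ over control on that log2 scale. On this scale 8 members rose with HA-TAZ and 0 fell. The 8 are GRWD1, FBL, PES1, RRP1B, WDR74, RRN3, RRP9 and TCOF1, with folds of mean scaled TPM from 1.17 to 1.46. They are 18.2% of the members, against 4.67% of all genes called higher and 2.63% called lower, 7.50% of protein-coding genes called higher, and 9.91% of the 7175 protein-coding genes within the members' range of TPM. In all 3 HA-TAZ libraries 31 members were above all 3 control libraries, 0 were below and 13 overlapped, whereas 20.2% of all genes were higher and 18.3% lower without overlap, and 38.2% of the protein-coding genes in the members' range were higher. At an unadjusted p under 0.05 in limma, 25 members were higher and 0 lower, against 16.6% of all genes higher. Of the 7175 protein-coding genes in the members' range, 2372 were higher and 672 lower at that threshold.

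The members' median log2 fold change was 0.17, with a range from -0.10 (WDR43) to 0.52 (GRWD1), beside a median of -0.03 over all genes tested, 0.06 over protein-coding genes and 0.09 over the protein-coding genes in the members' range. The direction rests on the scaling, since with TPM as deposited the members' median was -0.12, while the median of all genes was -0.27. As deposited 8 of 44 members were positive, beside 1200 of the 7175 protein-coding genes in the members' range. Measured against the median of all genes, 42 members lay above it with scaled TPM and 37 with TPM as deposited. Of the same 7175 genes, 5096 and 4582 lay above it, so most coding genes at these levels did so too. Without scaling, limma called 0 members, against 1.15% of all genes called higher and 13.5% called lower, and at an unadjusted p under 0.05 it gave 1 member higher (2.88% of all genes) and 8 lower (37.9% of all genes). On the same values GRWD1 and FBL were higher without overlap (4.41% of all genes), and 12 members were lower without overlap (43.6% of all genes). The 12 are WDR12, GNL2, NIP7, LAS1L, NOP14, WDR43, WDR75, DDX10, DKC1, POLR1B, UBTF and MYBBP1A. Leaving out 1 library at a time left 0 members called without any one of the HA-TAZ libraries, 2 without control a and 1 each without control b or control c. The shares of all genes called higher fell as well, to 0.413%, 0.465% and 0.676% without HA-TAZ 1, 2 and 3 and to 1.45%, 0.623% and 1.62% without control a, b and c.

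**Figure D1:**
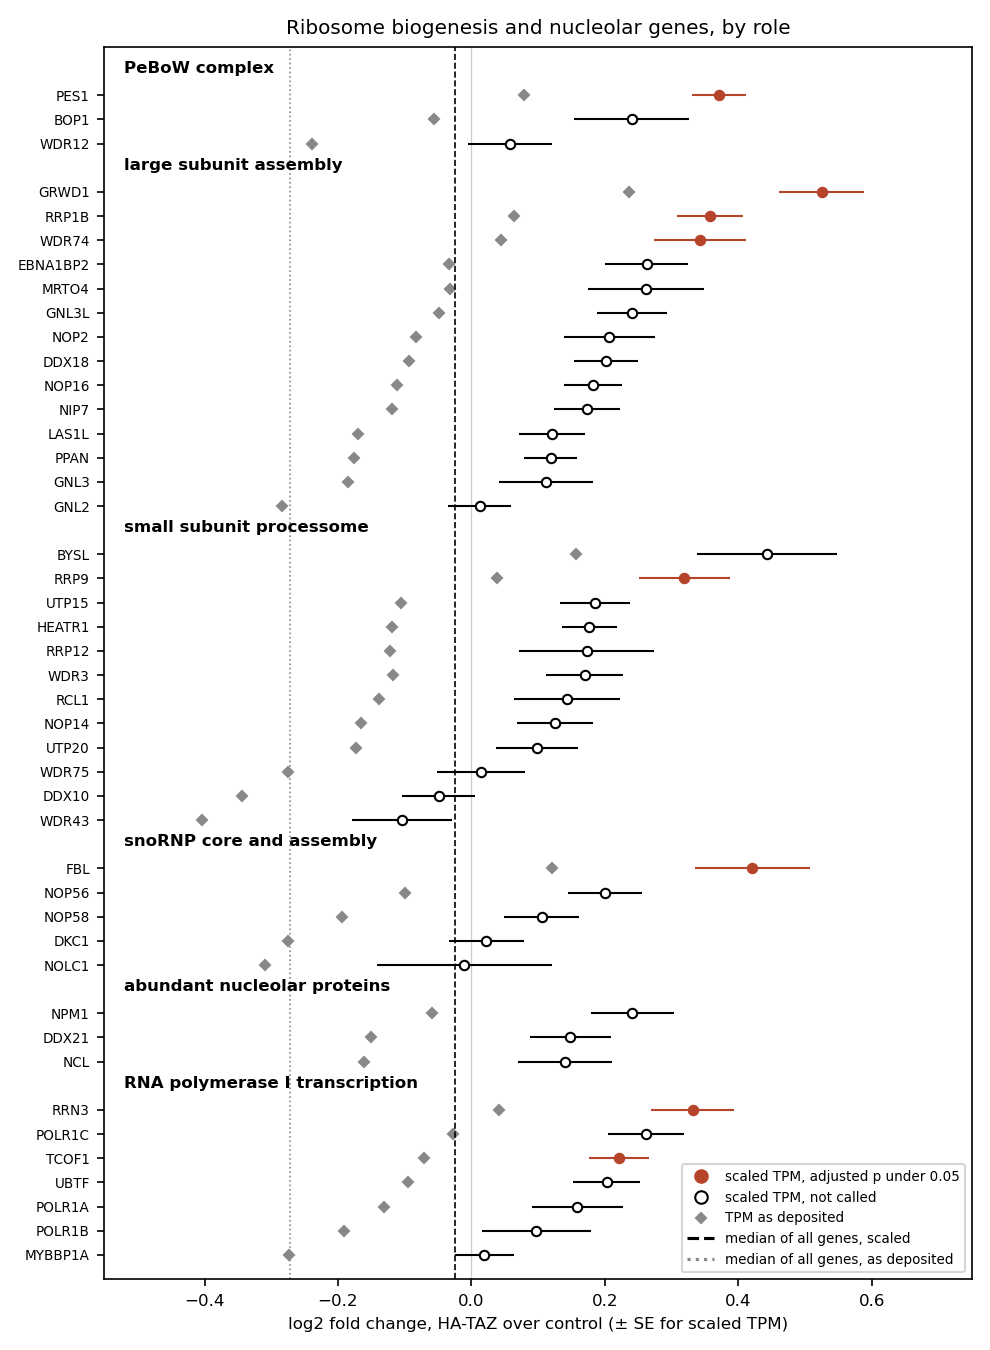
Log2 fold change (HA-TAZ over control) of the 44 members by role, as circles with limma standard errors for scaled TPM, filled in red where the adjusted p is under 0.05, and as grey diamonds for TPM as deposited, with dashed and dotted lines at the medians of all genes on the 2 scales. The circles lie from -0.10 to 0.52 with 41 above 0 and 42 above the median of all genes, whereas 8 diamonds are above 0 and 37 above their median of all genes.

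As a share of the library, the members together held 0.354% ± 0.0194 (SD, n = 3) of TPM with HA-TAZ and 0.386% ± 0.0284 (SD, n = 3) in the control. As a share of the TPM of protein-coding genes alone the order was the other way round, with 0.799% ± 0.00735 (0.793 to 0.807%) with HA-TAZ and 0.767% ± 0.0117 (0.759 to 0.780%) in the control, and the libraries did not overlap. Their summed scaled TPM was 3907 ± 82.7 with HA-TAZ and 3452 ± 94.7 in the control. Of these sums NPM1 held a mean of 790 with HA-TAZ and 669 in the control, and NCL 722 and 656. A few abundant members thus weigh most in the sums and shares. The coefficient of variation of a member over the libraries of 1 group had a median of 3.23% with HA-TAZ and 5.05% in the control. With TPM as deposited 28 of the 44 members were highest in control a, the library with the largest factor, and the part of that library in the results was tested only by leaving it out. In bulk RNA, more RNA of a gene per cell and more cells that express it cannot be told apart.

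Large subunit factors held 4 of the 8 members that rose, 1 of the 3 PeBoW genes (33.3%) and 3 of the 14 others (21.4%). These shares stand beside 18.2% of all members and 28.6% of the 7 members of RNA polymerase I transcription. Of the protein-coding genes in the members' range of TPM 9.91% were called higher. Of the PeBoW complex, in which PES1, BOP1 and WDR12 act together in cutting the precursor of the large subunit RNA, PES1 rose and the others did not pass the test. PES1 was at 38.3, 37.4 and 38.4 scaled TPM in HA-TAZ 1, 2 and 3 and at 29.5, 28.5 and 29.6 in control a, b and c. The groups stand well apart and the libraries of each are close together. Its log2 fold change was 0.37 (SE 0.04, limma adjusted p = 0.0134), a fold of 1.30. As deposited, PES1 was at 33.2, 36.2 and 34.2 TPM with HA-TAZ and at 35.6, 31.1 and 31.3 TPM in the control, so that control a lay among the HA-TAZ libraries. BOP1 had a log2 fold change of 0.24 without overlap. Its second gene ID, which was left out of the member counts, had -0.16 as scaled, with overlap. As deposited that ID had -0.43 (limma adjusted p = 0.0424) and was lower without overlap, so the result for BOP1 depends on the ID used. WDR12 had a log2 fold change of 0.06 with overlap. The partner WDR12 therefore lay near the median of all genes while PES1 lay above it, and the difference between them was not tested.

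Among the 14 other large subunit factors GRWD1, RRP1B and WDR74 rose, and the median log2 fold change was 0.20. Of the 14, 12 were higher without overlap, against 38.2% of the protein-coding genes in the members' range of TPM. GRWD1 is a chaperone with WD repeats that handles the ribosomal protein RPL3. It was at 28.7, 29.3 and 30.0 scaled TPM with HA-TAZ and at 18.7, 21.6 and 20.1 in the control, and had the largest log2 fold change of all members (0.52, SE 0.06, limma adjusted p = 0.0164). It was one of 2 members whose HA-TAZ libraries were all above the controls in TPM as deposited as well, with a log2 fold change of 0.24 there. RRP1B, a nucleolar protein of large subunit precursors, was at 42.5, 41.9 and 40.0 scaled TPM with HA-TAZ and at 31.0, 33.3 and 32.1 in the control (log2 fold change 0.36, SE 0.05, limma adjusted p = 0.0226). WDR74, which works with an ATPase in remodelling the same particles, was at 93.1, 83.2 and 86.9 against 64.1, 69.8 and 73.3 (log2 fold change 0.34, SE 0.07, limma adjusted p = 0.0457). Neither RRP1B nor WDR74 overlapped between the groups, and in WDR74 the lowest library was control a and the highest HA-TAZ 1.

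EBNA1BP2 and MRTO4 had the largest fold changes among the large subunit factors that were not called. EBNA1BP2, an assembly factor, was at 60.7, 62.2 and 58.4 scaled TPM with HA-TAZ and at 53.1, 51.3 and 46.5 in the control (log2 fold change 0.26, limma adjusted p = 0.0592). MRTO4, which holds the place of the stalk protein P0 on the precursor, was at 45.8, 39.7 and 43.6 against 32.1, 36.9 and 38.2 (log2 fold change 0.26, limma adjusted p = 0.11). Both were higher without overlap, but in MRTO4 the lowest HA-TAZ library and the highest control library nearly met. The GTPases gave 0.01 for GNL2, 0.11 for GNL3 (nucleostemin) and 0.24 for its paralogue GNL3L as log2 fold changes. The helicase DDX18 gave 0.20, the RNA methyltransferase NOP2 0.21, NOP16 0.18, NIP7 0.17, PPAN 0.12, and LAS1L, the nuclease that cuts the spacer of the large subunit precursor, 0.12. None of these was called, and GNL2 and GNL3 overlapped between the groups.

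Of the 12 members that act in the small subunit processome or in later small subunit maturation, RRP9 rose, and the median log2 fold change was 0.16. Higher without overlap were 7 of the 12, against 38.2% of the protein-coding genes in the members' range of TPM. RRP9 binds the U3 snoRNA that guides the first cuts of the precursor. It was at 16.6, 14.8 and 15.9 scaled TPM with HA-TAZ and at 12, 13.2 and 12.1 in the control (log2 fold change 0.32, SE 0.07, limma adjusted p = 0.0497), which is just inside the threshold. BYSL (bystin), a late factor of the small subunit, was at 23.8, 18.9 and 24.2 with HA-TAZ and at 15.3, 16.7 and 16.1 in the control. Its log2 fold change of 0.44 was the second largest of all members but did not pass the test (SE 0.10, limma adjusted p = 0.0589), and HA-TAZ 2 lay closer to the controls than to the other HA-TAZ libraries. UTP20, the least abundant member, was at 9.38, 9.37 and 8.92 scaled TPM with HA-TAZ and at 8.69, 8.79 and 8.19 in the control (log2 fold change 0.10, limma adjusted p = 0.331).

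HEATR1, UTP15, WDR75 and WDR43 are early processome proteins that join the gene under transcription, and none of them was called. HEATR1 and UTP15 had log2 fold changes of 0.18 each without overlap, WDR75 had 0.01, and WDR43 had -0.10 with overlap. WDR43 was at 104, 117 and 102 scaled TPM with HA-TAZ and at 123, 115 and 109 in the control (limma adjusted p = 0.385), so HA-TAZ 2 lay among the controls. When only protein-coding genes were used, WDR43 was called lower (log2 fold change -0.22). The helicase DDX10 had a log2 fold change of -0.05, RCL1 of 0.14, NOP14 of 0.13, WDR3 of 0.17 and RRP12, which takes part in export, of 0.17. None was called, and DDX10, RCL1 and RRP12 overlapped between the groups.

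FBL (fibrillarin), the ribose methyltransferase of box C/D snoRNPs, rose, and the 4 other snoRNP proteins did not pass the test. It was at 227, 207 and 231 scaled TPM with HA-TAZ and at 149, 165 and 182 in the control, a fold of 1.34 (log2 fold change 0.42, SE 0.09, limma adjusted p = 0.0469). Its HA-TAZ libraries were also above the controls as deposited, at 197, 200 and 205 TPM against 181, 180 and 193. NOP56 and NOP58, which sit beside FBL in the same particle, had log2 fold changes of 0.20 and 0.11, and in NOP58 HA-TAZ 3 and control a met at 131 scaled TPM. DKC1, the pseudouridine synthase of the other snoRNP class, had 0.02, and NOLC1, an assembly factor, had -0.01, both with overlap.

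NPM1 (nucleophosmin) and NCL (nucleolin), the abundant structural proteins of the nucleolus, were the most abundant members and were not called. NPM1 was at 819, 775 and 776 scaled TPM with HA-TAZ and at 625, 700 and 682 in the control (log2 fold change 0.24, limma adjusted p = 0.0688). The groups did not overlap as scaled, whereas as deposited NPM1 was at 709, 750 and 691 TPM with HA-TAZ and at 756, 763 and 721 in the control. NCL was at 736, 735 and 695 scaled TPM against 664, 701 and 603 (log2 fold change 0.14, limma adjusted p = 0.232), with overlap, and the helicase DDX21 had a log2 fold change of 0.15 without overlap. NPM1 and RRN3 have near-identical pseudogene copies that can share reads, so their values are uncertain.

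Among the 7 members of RNA polymerase I transcription RRN3 and TCOF1 rose, and the median log2 fold change was 0.20. Of the 7, 5 were higher without overlap, against 38.2% of the protein-coding genes in the members' range of TPM. RRN3 is the initiation factor that recruits the polymerase to its promoter. It was at 29.1, 29.4 and 28.1 scaled TPM with HA-TAZ and at 21.0, 23.8 and 23.5 in the control (log2 fold change 0.33, SE 0.06, limma adjusted p = 0.0406). TCOF1 (treacle), which holds polymerase and processing factors together, was at 36.7, 35.1 and 36.5 against 30.5, 31.9 and 30.1. Its log2 fold change was 0.22 as scaled (SE 0.05, limma adjusted p = 0.0469) and -0.07 as deposited, the only one of the 8 called members whose sign turned. The polymerase subunits POLR1A, POLR1B and POLR1C had log2 fold changes of 0.16, 0.10 and 0.26, the promoter factor UBTF had 0.20 and the repressor MYBBP1A had 0.02. None of these 5 was called, and POLR1B and MYBBP1A overlapped between the groups.

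**Figure D2:**
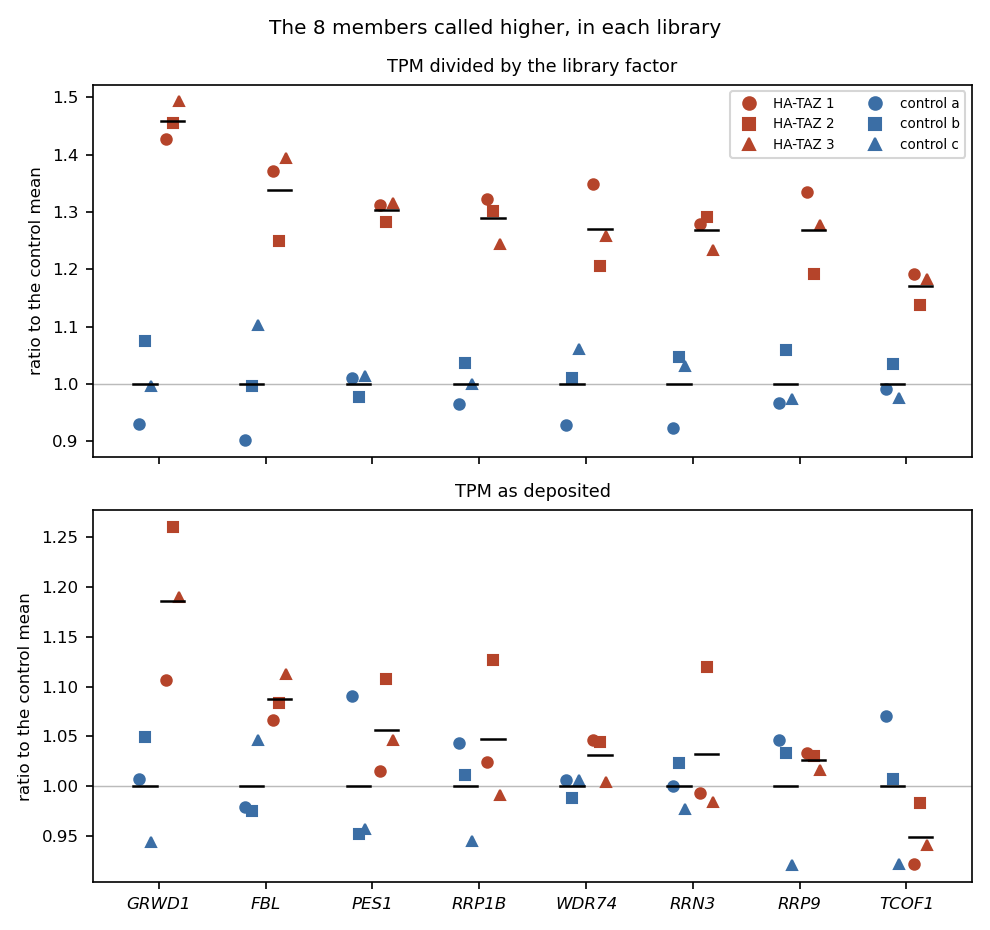
Level of the 8 called members in each of the 6 libraries as a ratio to the mean of the 3 control libraries, as scaled TPM in the upper panel and as TPM as deposited in the lower one, with 1 symbol per library and bars at the group means. In the upper panel every HA-TAZ library lies above every control library in all 8 members, with means at 1.17 (TCOF1) to 1.46 (GRWD1), and in the lower panel this holds for GRWD1 and FBL.

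The members just outside the threshold are close to those inside it. RRP9, the last one called, had a limma adjusted p of 0.0497, and POLR1C, the first not called, had 0.0509. In all, 9 members had an adjusted p from 0.05 to 0.07 in limma, and 20 members were under 0.1. The share of all genes at these cut-offs was not counted, so no background stands beside these numbers. Under 0.05, 4.67% of all genes and 9.91% of the protein-coding genes in the members' range of TPM were called higher.

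The scaling can be taken out of the picture by setting each member against the mean log2 TPM of the 44 members in the same library. On that measure 6 members were higher with HA-TAZ without overlap, 6 were lower and 32 overlapped. Over all genes tested, set against the same mean, 7.19% were higher and 36.6% lower without overlap. The 6 higher were GRWD1 (0.36), BYSL (0.28), PES1 (0.19), RRP1B (0.18), RRN3 (0.16) and RRP9 (0.15), as differences of log2 TPM. The 6 lower were WDR43 (-0.29), DDX10 (-0.24), GNL2 (-0.18), WDR75 (-0.17), MYBBP1A (-0.17) and DKC1 (-0.17). FBL, WDR74 and TCOF1, which passed the limma test, overlapped here. This measure shows how unequal the members were, not whether any of them stayed level.

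The members' transcripts were also compared one by one. The table held 388 member transcripts, of which 247 were tested, and limma called 0 higher and 0 lower at an adjusted p under 0.05, against 0.432% and 0.103% of all transcripts. At an unadjusted p under 0.05, 54 were higher and 15 lower in limma, against 13.1% and 11.1% of all transcripts. The authors' deposited table gives statistics for 332 of them, and at its q under 0.05 it has 40 with a positive effect (12%, against 4.08% of all transcripts) and 4 with a negative one (1.2%, against 1.60%). The 40 belong to 29 of the 44 members, and 34 of them are protein-coding transcripts. In the authors' deposited table the median effect was 0.0913 on the natural log scale over member transcripts and -0.00254 over all. That table and the gene test use the same 6 libraries, so neither is independent of the other.

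In the authors' deposited table the smallest q of a member transcript belonged to RRP12 transcript ENST00000370992.4, with an effect of 0.490 (SE 0.0612, natural log). This transcript was at 20.3, 20.7 and 20.1 TPM with HA-TAZ and at 15.0, 16.2 and 15.8 TPM in the control, without overlap. RRP12 transcript ENST00000487612.1 was at 12, 16.5 and 12.6 TPM with HA-TAZ and at 24.9, 25 and 13 TPM in the control, with control a and b high, and the gene as a whole was not called. HEATR1 was like it, with an effect of 0.354 in the authors' deposited table for ENST00000366581.2 and a gene that was not called. PES1 had 0.351 for its main coding transcript ENST00000354694.7 in the authors' deposited table, and BYSL had 0.435 for ENST00000230340.4.

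Total RNA holds incompletely spliced and non-coding transcripts, so the members' transcripts were divided into protein-coding and other types. In 39 members both kinds were at a mean of at least 1 scaled TPM. Their coding transcripts had a median log2 ratio of 0.23 and their other transcripts one of 0.03, against 0.14 and -0.08 over 7265 protein-coding genes measured in the same way. The share of a gene's TPM in coding transcripts was higher with HA-TAZ in 35 of the 39 members (89.7%), by a median of 2.89 percentage points, and in 77.7% of protein-coding genes, by 3.00 points. In 12 members it was higher without overlap and in 2 lower, against 29.2% and 2.79% of protein-coding genes. So a shift of about the members' size was found over protein-coding genes as a whole.

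GNL2 had 62.5% ± 2.74 (SD, n = 3) of its TPM in coding transcripts with HA-TAZ and 54.8% ± 3.64 in the control, although its gene level barely differed. FBL had 85.8% ± 1.2 and 82.1% ± 2.55, and POLR1A 70.1% ± 2.17 and 63.3% ± 2.58. The share was lower with HA-TAZ in 4 members. PPAN and NIP7 did not overlap, with 63.6% and 91.8% in HA-TAZ against 73.2% and 94.5% in the control, whereas GRWD1 (88.8% against 91.1%) and NPM1 (77.0% against 77.2%) did.

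**Figure D3:**
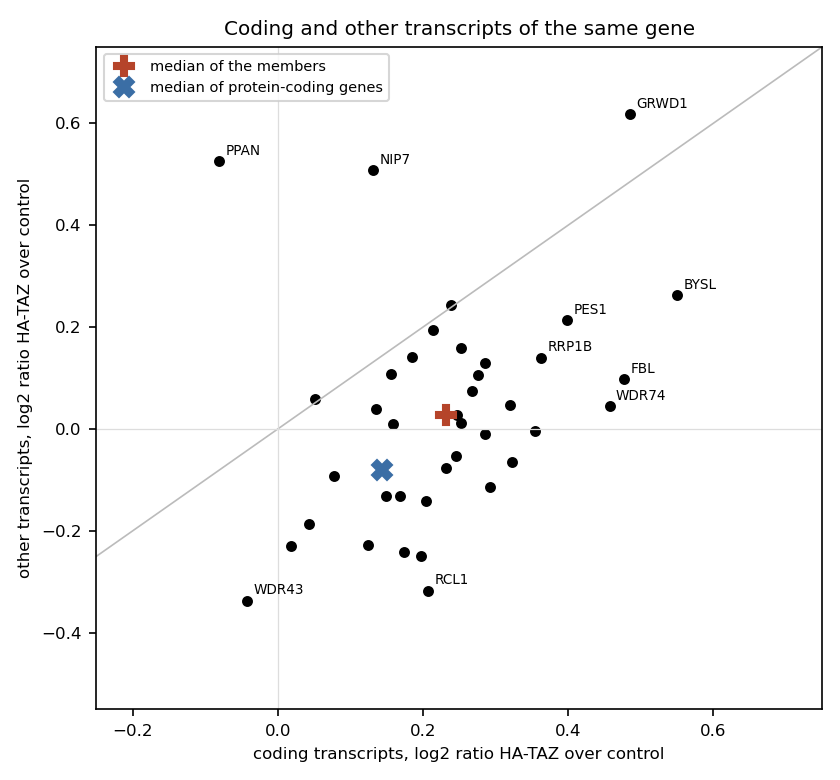
Log2 ratio of HA-TAZ over control (scaled TPM, means of 3 libraries) of the coding transcripts (x axis) and of the other transcripts (y axis) of the 39 members, 1 point per member, with the medians of the members and of protein-coding genes as crosses and the line of equal ratios. The coding share was higher with HA-TAZ in 35 of the 39 members. Most points lie below the line, and PPAN and NIP7 lie farthest above it. The ratios use a pseudocount of 1, and NOP16 (0.052 and 0.060) lies just above the line although its coding share was not lower with HA-TAZ.

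Other genes of the same pathway, listed by role but with earlier results of these data known, were taken as 4 lists of 154 genes, of which 153 were tested. Of these 23 rose (15.0%, against 9.91% of protein-coding genes in the members' range of TPM) and 0 fell, with a median log2 fold change of 0.18 that became -0.12 with TPM as deposited. The other small subunit factors held 10 of 45, among them TBL3 (0.60) and WDR46 (0.53), both WD repeat proteins of the processome, and IMP3 (0.27), which pairs U3 with the precursor. The other large subunit factors held 4 of 48 (8.33%, under that background), with EIF6 (0.67), which keeps the subunits from joining too early, NOC2L (0.40) and PAK1IP1 (0.25) first. Of 24 tested snoRNP, exosome and RNase MRP genes 5 rose, with EXOSC4 (0.41), EXOSC1 (0.28) and POP4 (0.41) first. Of 36 other genes of RNA polymerases I and III 4 rose, with GTF3C6 (0.49), POLR1E (0.50) and GTF3C4 (0.29) first, a share (11.1%) near the background. TBL3 had a limma adjusted p of 0.0247, and WDR46 lies in the HLA region, whose alternative copies can split reads, so its value is uncertain.

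The 79 cytosolic ribosomal protein genes, whose products the members assemble with ribosomal RNA, had a median log2 fold change of 0.29 as scaled and -0.01 as deposited. Of these 76 lay above the median of all genes, as did 7579 of the 11666 protein-coding genes tested. Only 3 of the 79 were called, among them RPL36 (0.44) and RPS15 (0.38). At an unadjusted p under 0.05 in limma 61 were higher, against 16.6% of all genes and 3031 of the 11666 protein-coding genes. The share of the 79 that was called (3.80%) was thus under the share of all genes called higher, although their median was above the members'. Without any one of the 6 libraries 0 of the 79 were called.

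**Figure D4:**
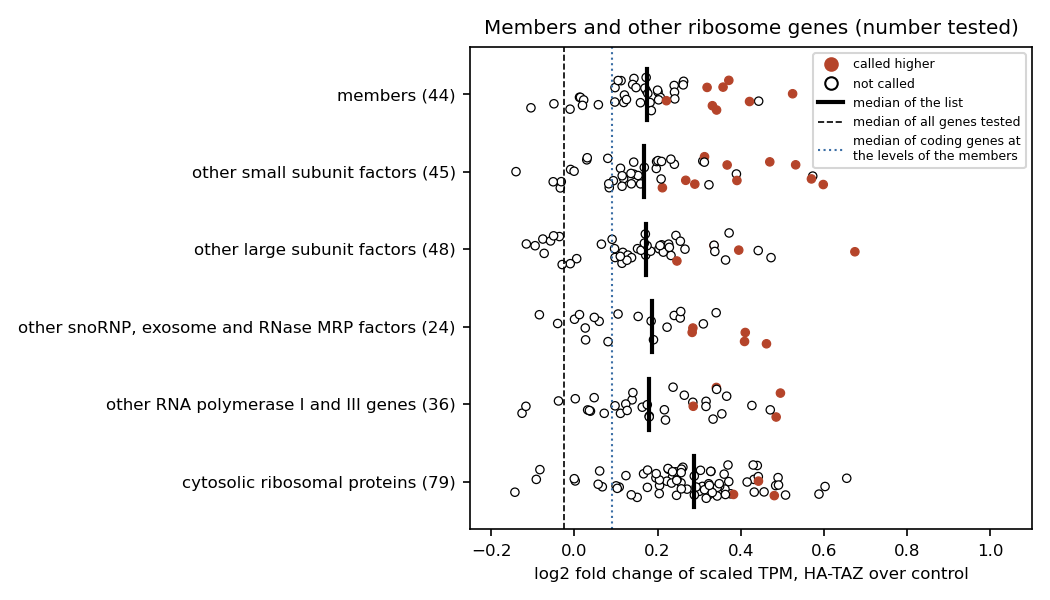
Log2 fold change of scaled TPM of each gene of 6 lists, 1 point per gene and filled where called higher, with a bar at the median of the list, a dashed line at the median of all genes and a dotted line at that of protein-coding genes in the members' range of TPM. The medians of the members and of the 4 other lists of biogenesis genes lie between 0.17 and 0.19, and that of the ribosomal proteins at 0.29.

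The RNAs that the members' proteins bind were measured as well, of which 17 of 22 listed passed the filter. Of the 17, 3 were called, all higher (17.6%, against 4.67% of all genes). SNORD3B-1, a copy of the U3 snoRNA that RRP9 binds, was at 10.8, 12.1 and 11.4 TPM with HA-TAZ and at 5.58, 6.58 and 6.18 TPM in the control (log2 fold change 1.07, limma adjusted p = 0.0104). SNORD13 was at 32.7, 29.5 and 32.0 TPM against 11.3, 13.6 and 20.6 TPM (log2 fold change 1.33, limma adjusted p = 0.0413), with control c the nearest to HA-TAZ. SNORD118 (U8), which acts on the large subunit precursor, was at 4.44, 4.73 and 3.15 TPM with HA-TAZ and at 1.21 TPM in control a, and was listed at 0 in control b and c (limma adjusted p = 0.026). These 3 are known to be transcribed from promoters of their own. The snoRNAs encoded in introns of members were not called, among them SNORD53 at -0.59, SNORD20 at -0.01 and SNORA75 at -0.08 as log2 fold changes. The listed RNAs SNORD3A, SNORD3C and RMRP, which do not lie in introns of members, were not among the calls either. Whether the kind of promoter bears on the calls was not tested. Leaving out 1 library at a time ended the call of SNORD13 and of SNORD118 in 5 of 6 fits each (limma adjusted p up to 0.134 and 0.106) and that of SNORD3B-1 in 2. U3 has near-identical copies that can share reads, and SNORD3A was not called (0.58). RNAs this short are poorly held by libraries of this kind, and the effect of that on these values was not tested.

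MYC had a log2 fold change of 0.18 (limma adjusted p = 0.0859, -0.12 as deposited), close to the members' median of 0.17, and was not called. AATF, a nucleolar protein of the small subunit processome, had 0.03 (limma adjusted p = 0.729). Of the 6 called members in the promoter table, 3 held the E-box shown for PES1, FBL and RRP9, and 0 held the TEAD core.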

How the data were processed

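Total RNA was treated with DNase and depleted of ribosomal RNA, and stranded libraries were sequenced from both ends, per the labels' protocols. The authors deposited TPM for 215170 transcripts in 6 libraries. They also deposited a per-transcript Wald table by sleuth, per the file headers. In the authors' deposited table the q-value is the p-value adjusted for multiple tests, the effect and the mean are on a natural log scale, and the test statistic is a score. Per the submitters' processing notes, kallisto 0.46.0, sleuth 0.30.0 and build GRCh37 were named, with no role given. Whether counting used strand is not given in the sources used here, so overlapping and antisense genes are uncertain.

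TPM was summed per gene ID. Factors were medians of ratios over 21512 genes above 0 in all libraries. Genes with a mean of at least 1 TPM were tested with limma 3.58.1 (R 4.3.3, intensity trend, two-sided, pseudocount 1, Benjamini-Hochberg over all genes). The fit was tested on simulated data whose noise was independent between genes. That cannot show how it behaves where many genes of a library shift together beyond the library's factor. The log2 scale with a pseudocount of 1 understates changes of low genes. An exact permutation test of 3 against 3 libraries cannot go under 0.1 and was not used. Python 3.11.15 made the tables. GENCODE 29 gave gene and transcript types, which 82.5% of gene IDs and 84.7% of transcripts matched. The members and lists were chosen with earlier results of these data known. By a fixed rule, values in every library are given for called members, the 3 members with the largest changes not called, and the most and least abundant, and the 3 called genes with the smallest adjusted p-values are named per other list, except 1 that is not reported here. WDR43, NCL and transcripts were named after their values were seen. Alternatives were other pseudocounts, filters and scalings, no trend, coding genes or transcripts only, and each library left out.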

Additional observations from a re-analysis of the deposited data

How the results depend on the processing

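The 8 members called higher became 3 with no filter on level, 3 without the intensity trend, 0 with TPM as deposited, and 0 to 2 when 1 library was left out. They were 7 or 8 under the other alternatives, with 1 member (WDR43) called lower when only protein-coding genes were used. The members' median log2 fold change was 0.21 with no filter, 0.12 at a mean of at least 5 TPM, -0.12 as deposited, 0.058 with protein-coding genes only, 0.084 with coding transcripts only and 0.16 to 0.20 when 1 library was left out; 33 to 42 members exceeded the all-gene median. The 23 other biogenesis genes called higher became 3 with no filter, 2 as deposited, 3 without the trend and 0 to 4 when 1 library was left out, and 2, 4, 3 and 1 were called lower at 5 TPM, as deposited, with protein-coding genes only and with coding transcripts only. The 3 ribosomal protein genes became 5 with a pseudocount of 0.1, 0 with no filter, 6 at 5 TPM, 0 as deposited, 0 without the trend, 5 with coding transcripts only and 0 when any 1 library was left out. At 5 TPM 6 member transcripts were called higher and 1 lower. PES1 and GRWD1 lost their call in 4 of the 6 fits that left out a library, and the other 6 called members in all 6.

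Single log2 fold changes turned sign as follows, and of these TCOF1, IMP3, PAK1IP1 and EXOSC1 were called in the fit of the text. As deposited they were BOP1 -0.056, WDR12 -0.24, GNL2 -0.28, GNL3 -0.18, GNL3L -0.048, MRTO4 -0.032, PPAN -0.18, EBNA1BP2 -0.033, NIP7 -0.12, LAS1L -0.17, DDX18 -0.094, NOP2 -0.083, NOP16 -0.11, NOP14 -0.17, RRP12 -0.12, UTP15 -0.11, UTP20 -0.17, WDR3 -0.12, WDR75 -0.28, HEATR1 -0.12, RCL1 -0.14, NOP56 -0.10, NOP58 -0.19, DKC1 -0.27, NCL -0.16, NPM1 -0.060, DDX21 -0.15, POLR1A -0.13, POLR1B -0.19, POLR1C -0.028, UBTF -0.095, TCOF1 -0.071, MYBBP1A -0.27, IMP3 -0.025, PAK1IP1 -0.039, EXOSC1 -0.0092, MYC -0.12 and AATF -0.27. With protein-coding genes only they were WDR12 -0.061, GNL2 -0.11, GNL3 -0.0061, UTP20 -0.011, WDR75 -0.10, NOP58 -0.014, DKC1 -0.097, POLR1B -0.018 and MYBBP1A -0.099. With coding transcripts only they were WDR12 -0.0034, PPAN -0.22, NIP7 -0.014, NOP16 -0.053, NOP14 -0.021, WDR75 -0.071, DKC1 -0.026 and DDX21 -0.0019. At 5 TPM they were GNL2 -0.044, WDR75 -0.041, DKC1 -0.034, MYBBP1A -0.036 and AATF -0.026, and with no filter NOLC1 0.024. When 1 library was left out, WDR75 ran from -0.018 to 0.082, MYBBP1A ran from -0.0010 to 0.042, NOLC1 ran from -0.13 to 0.11, GNL2 ran from -0.013 to 0.048, DKC1 ran from -0.0021 to 0.069 and AATF ran from -0.0081 to 0.063. The cause was not tested. Summing the gene IDs of a symbol, chosen after seeing the data, left the 8 calls. WWTR1 stayed called in every alternative run (log2 fold change 6.71 to 6.85 when 1 library was left out). No paired analysis was possible because the control columns carry a name that is in no label, so their numbers cannot be taken for those of the wild type samples. The depth of single libraries is unknown.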

Other observations

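Within BOP1, NOP58 and DDX18, transcripts of 1 gene had effects of opposite sign at a q under 0.05 in the authors' deposited table. BOP1 transcript ENST00000307404.5 had an effect of 0.498 (natural log) there and was at 40.7, 39.2 and 42.3 TPM with HA-TAZ against 27.7, 30.7 and 35.1 TPM for control a to c. BOP1 transcript ENST00000529231.1 had an effect of -0.475 in the authors' deposited table and was at 8.03, 11 and 8.88 TPM against 22.6, 18.5 and 15 TPM. Neither overlapped between the groups, and neither was called by limma (adjusted p = 0.0888 and 0.079). NOP58 transcript ENST00000467734.1, which is of the type processed transcript, was at 1.09, 1.08 and 1.43 TPM with HA-TAZ and at 3.06, 3.76 and 2.71 TPM in the control, with an effect of -0.753 in the authors' deposited table, while its main coding transcript ENST00000264279.5 had 0.193. In DDX18 the coding transcript ENST00000263239.2 had 0.207 in the authors' deposited table. The retained intron transcripts DDX18 ENST00000476149.1 (-0.291) and NCL ENST00000461347.1 (-0.179) complete the 4 with a negative effect at the authors' q under 0.05.

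The plasma cell marker SLAMF7 rose (log2 fold change 0.95 as scaled) and CD38 fell by 0.61 in limma, and the part of the cells' state in the members' values was not tested.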
